A study of Mus musculus with 31 samples.

Results

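The interferon-stimulated genes outside the large named families were followed in macrophages grown from mouse bone marrow. These are 39 genes listed by name as induced by type I interferon, leaving out the IFIT, OAS, Mx, Schlafen, GBP, IRG, RNA sensor and ISG15 families. The list was taken as given, and its members were chosen with earlier results of these data known. All 39 had an Ensembl identifier and counts in both experiments. They were 39 of 35275 identifiers in experiment 1 and 39 of 54532 in experiment 2. All 39 also passed the filter on low counts, with 12662 and 13313 genes tested. Every library held reads of all 39, and the thinnest were Cd69 and Ifi205, with as few as 2 and 4 reads in a vehicle library.

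The study treated cells of male C57BL/6J mice, aged 6 to 12 weeks and differentiated in medium conditioned by L-929 cells, with compounds overnight before stimulation. Experiment 1 (21 libraries) had 7 groups of 3. One was vehicle without stimulation, and the others had LPS, alone (the LPS group), with a single compound (Dex, iBRD9 or dBRD9), or with Dex plus either BRD9 compound. Experiment 2 (10 libraries) had 5 groups of 2. Its groups were vehicle, IFNg + LPS, and the same stimulation with Dex, with dBRD9 or with both. LPS, a bacterial cell wall component that triggers toll-like receptor 4, was given at 100 ng/ml for 3 h. The dose and timing of IFNg, or interferon gamma, were not given in the sources used here. Dexamethasone (Dex), a synthetic glucocorticoid, was used at 1 µM. dBRD9, a degrader of the chromatin remodelling subunit BRD9, was used at 250 nM. iBRD9, an inhibitor of the BRD9 bromodomain, was used at 3 or 10 µM, and which libraries had which dose was not stated. The labels do not say whether libraries of a group came from separate animals or cultures, so p-values measure only the spread between these libraries, which may be technical.

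Type I interferons act through the receptor chains Ifnar1 and Ifnar2 and the kinases Jak1 and Tyk2. The signal ends at interferon-stimulated response elements in the promoters of target genes. Macrophages given LPS make interferon beta and respond to it themselves, so that a second wave of genes follows the direct response to LPS. Interferon gamma has its own receptor and acts mainly through gamma-activated sites. Glucocorticoids bind the glucocorticoid receptor and dampen much of the inflammatory response of macrophages. BRD9 is a subunit of non-canonical BAF, which remodels nucleosomes.

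The promoters of the genes show which of them carry the response element, and those of 5 genes are printed here. RefSeq promoter windows of 300 bases, from 250 bases before to 50 after a start site, were matched by symbol for 32 of the 39 genes (43 windows). The core of the interferon-stimulated response element, GAAANNGAAA on either strand, was found for 11 of these 32 genes (34.4%). By window it was in 12 of 43 (27.9%), against 3.44% of all 32851 windows of the same length. The 11 genes were Ddx60, Tdrd7, Trim21, Trim30a, Trim30d, Trim34a, Phf11b, Ifi203, Ifi205, Bst2 and Lgals9. The gamma-activated site, TTCNNNGAA, was found for 5 genes (Adar, Samhd1, Bst2, Fcgr1 and Ifi35). That was 11.6% of the windows of the listed genes against 8.3% of all windows. The NF-kB motif GGGNNTTTCC was in none of the 43 windows and in 1.63% of all windows. A match describes these letters in this window and is not evidence of binding, and a missing match says nothing about the factor. The 250 bases before the start are given 5′ to 3′ on the gene's strand in GRCm38.p6. Capitals mark the response element core, except for Fcgr1, the high-affinity receptor for IgG, where they mark the gamma-activated site. Ifi205, a DNA-binding PYHIN protein, has its window at chr1:174031756-174032005 on the minus strand. Ddx60, a helicase of the antiviral response, has its window at chr8:61927837-61928086 on the plus strand and carries the core in 2 places. Bst2, or tetherin, which holds budding virus at the cell surface, lies at chr8:71537473-71537722 on the minus strand. Its 2 cores overlap by 4 bases, and a gamma-activated site overlaps the first of them. Phf11b, a PHD finger protein, has its window at chr14:59341331-59341580 on the minus strand. The window of Fcgr1 is chr3:96293970-96294219 on the minus strand.
Ifi205: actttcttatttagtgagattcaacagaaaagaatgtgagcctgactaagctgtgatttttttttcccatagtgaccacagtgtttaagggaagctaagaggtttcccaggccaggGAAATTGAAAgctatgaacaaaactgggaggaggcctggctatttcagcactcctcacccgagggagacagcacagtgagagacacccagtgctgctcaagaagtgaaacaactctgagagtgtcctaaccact
Ddx60: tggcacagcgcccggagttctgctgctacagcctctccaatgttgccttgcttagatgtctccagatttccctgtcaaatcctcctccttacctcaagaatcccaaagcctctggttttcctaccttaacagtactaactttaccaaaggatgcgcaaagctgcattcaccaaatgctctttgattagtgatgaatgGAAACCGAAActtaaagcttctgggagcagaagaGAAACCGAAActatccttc
Bst2: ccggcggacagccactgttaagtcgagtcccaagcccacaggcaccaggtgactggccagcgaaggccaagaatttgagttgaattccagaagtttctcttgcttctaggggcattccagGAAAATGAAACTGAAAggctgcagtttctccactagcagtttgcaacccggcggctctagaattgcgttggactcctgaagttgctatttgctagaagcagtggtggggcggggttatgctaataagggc
Phf11b: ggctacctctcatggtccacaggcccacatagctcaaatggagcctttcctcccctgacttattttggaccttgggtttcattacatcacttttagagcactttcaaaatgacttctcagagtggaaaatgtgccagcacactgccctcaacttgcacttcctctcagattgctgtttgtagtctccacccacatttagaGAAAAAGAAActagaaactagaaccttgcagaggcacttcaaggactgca
Fcgr1: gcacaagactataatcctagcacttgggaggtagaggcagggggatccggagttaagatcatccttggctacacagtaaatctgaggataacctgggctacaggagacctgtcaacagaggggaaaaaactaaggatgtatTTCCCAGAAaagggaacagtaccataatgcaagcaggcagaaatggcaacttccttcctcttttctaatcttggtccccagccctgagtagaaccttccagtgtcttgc

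Depth was 19.3 to 29.9 M counts per library in experiment 1 and 14.5 to 17.9 M in experiment 2. All 7 macrophage markers were present in every group, with summed levels of 11255.6 to 23355 CPM (counts scaled to the library total) in experiment 1 and 11105.2 to 14193.2 in experiment 2. Tsc22d3 and Fkbp5, which glucocorticoids induce, were high in every library labelled Dex, with Fkbp5 at 519 to 546 CPM against 13.0 to 36.6 CPM in the other libraries of experiment 1. Replicate 1 of Dex + LPS and replicate 1 of Dex + dBRD9 + LPS stood apart from their groups by a trend with transcript length (rho -0.68 and -0.51 over 7847 genes). Long members such as Rnf213 and Helz2 were low in both. Counts of called genes in comparisons among LPS-treated groups that use these libraries are given with and without them. Most fold changes, the levels and the counts against vehicle are given only with them. The dBRD9 + LPS libraries also differed in the trend with transcript length (rho -0.32, 0.42 and -0.07 for replicates 1, 2 and 3). The part of that trend in the dBRD9 results was not tested. In experiment 2 the 2 libraries of a group mirror each other in this trend by construction. The vehicle pair differed most (rho -0.63 for replicate 1 and 0.63 for replicate 2, over 7671 genes), then the Dex + IFNg + LPS pair (0.56 and -0.56) and the IFNg + LPS pair (-0.28 and 0.28). Which of 2 libraries stands apart cannot be told. Stromal markers summed to 32.2 to 65.5 CPM in experiment 2 and at most 0.385 CPM in experiment 1, and their part in the results was not tested.

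LPS raised most of the genes. The 39 genes together took 0.365 to 0.372% of all counts in the vehicle libraries and 0.940 to 1.02% in the LPS libraries. Of the 39, 37 were higher with LPS, against 36.1% of all genes tested, and 28 of them rose more than 2-fold. Fcgr1 alone was lower, at -0.63 on the log2 scale (SE 0.13), against 39.3% of all genes called lower. Ifi27l2a was not called, at 0.22 (SE 0.12). The median log2 fold change was 2.04 over the 39 genes and -0.05 over all genes tested. These calls come from edgeR's quasi-likelihood test with Benjamini-Hochberg adjustment over all genes at an adjusted p under 0.05. In bulk RNA, fewer cells of a type and less RNA per cell cannot be told apart. Conventional dendritic cell markers summed to 0.728 to 1.06 CPM with vehicle and 6.87 to 7.80 CPM with LPS, with 3 of 5 above 1 CPM in any library and Cd209a at 0 in all. Plasmacytoid dendritic cell markers went from 0.299 to 0.698 CPM to 2.90 to 3.73 CPM, with 1 of 5 above 1 CPM and Klk1 at 0. The part of these cells in the result was not tested. Scaling by library totals alone, which moved the median of all genes from -0.05 to -0.56, gave 32 higher and 5 lower. Over all 12662 genes it gave 2421 higher and 8125 lower. Samhd1, Ly6e, Ifi27, Ifi27l2a and Epsti1 then had a negative fold change, and of these Ly6e (-0.065) was not called. Samhd1, Ifi27 and Epsti1 went from called higher to called lower.

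Cd69, an early activation receptor of leukocytes, rose most. It stood at 0.0728, 0.233 and 0.187 CPM in the vehicle libraries and at 270, 266 and 267 CPM with LPS (log2 fold change 10.58, SE 0.12). Ifi205 stood at 0.146, 0.204 and 0.411 CPM with vehicle and at 220, 213 and 223 CPM with LPS (9.75, SE 0.20). The vehicle values rest on 2 to 8 reads a library for Cd69 and 4 to 11 for Ifi205, which limits the precision of the fold, and the groups did not overlap. All 3 PYHIN genes, which encode DNA-binding proteins related to the inflammasome sensor Aim2, rose. They lie in 1 stretch of chromosome 1 between 173747293 and 174031810 (GRCm38). Ifi203 rose from 41.1, 38.5 and 37.1 CPM to 865, 834 and 877 CPM (4.46, SE 0.09), and Ifi204 rose by 2.81 (SE 0.07). The LPS libraries lay above every vehicle library for all 3.

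All 8 genes that handle RNA or DNA rose. Helz2, a helicase with zinc fingers that coactivates nuclear receptors, went from 44.1, 44.7 and 41.9 CPM to 762, 713 and 796 CPM (4.12, SE 0.17). Znfx1, an RNA-binding helicase, went from 187, 191 and 178 CPM to 757, 750 and 780 CPM (2.04, SE 0.08). Ddx60 rose by 2.54 and Samd9l by 2.48. The RNA-editing enzyme Adar rose by 1.70 and the mitochondrial RNA-degrading enzyme Pnpt1 by 1.28. At the low end were Tdrd7 at 0.85 and Samhd1, which breaks down deoxynucleotides, at 0.26. No vehicle library overlapped the LPS libraries for Helz2 or Znfx1.

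All 7 ubiquitin ligases rose. Rnf213, a very large ligase of the cytosol, had 270, 274 and 253 CPM with vehicle and 2174, 2086 and 2376 CPM with LPS (3.06, SE 0.22). Trim21, which is both a ligase and a cytosolic receptor for antibodies, rose by 3.03 and Trim30d by 3.02. Trim25, the ligase that activates the RNA sensor RIG-I, rose by 0.79. Trim30a, Trim30d and Trim34a lie together on chromosome 7 between 104244457 and 104507849, and 39.8% of the 50-base stretches of Trim34a also occur in another gene, so its reads may be split.

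All 5 genes of nuclear bodies and chromatin rose. Daxx, a histone chaperone of PML bodies, went from 41.2, 40.7 and 40.8 CPM to 365, 361 and 367 CPM (3.15, SE 0.08). The neighbours Phf11b and Phf11d rose by 3.03 and 2.93, with 47% of the 50-base stretches of Phf11b shared with another gene. Sp100 rose by 1.21 and Pml, which organises the bodies that bear its name, by 0.61. The increase of Pml was the lowest of the 5, and its LPS libraries (69.7, 65.2 and 75.3 CPM) still lay above the vehicle libraries (49.1, 45.5 and 42.7 CPM).

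Of the 7 surface and secreted products 6 rose, with a median of 0.95 over the group, which includes Cd69. Ms4a4c, a membrane protein of the MS4A family, rose by 2.94 (SE 0.16). Lgals9 (galectin 9) rose by 1.30, Bst2 by 0.95 and Lgals3bp, a secreted glycoprotein that binds galectin 3, by 0.76. Ly6e, a lipid-anchored surface protein that restricts viral entry, rose by 0.45 (SE 0.13). Fcgr1 had 39.4, 36.6 and 35.1 CPM with vehicle and 22.9, 22.4 and 26.6 CPM with LPS, without overlap. Of the 3 genes tied to mitochondria or cell death, Xaf1, a partner of the apoptosis inhibitor XIAP, rose by 3.15 (SE 0.11) and Ifi27 by 0.33 (SE 0.08). The other cytoplasmic genes all rose, from Epsti1 at 0.19 (SE 0.07) to Ifi44 at 3.59 (SE 0.22). Ifi44 went from 0.874, 0.844 and 1.01 CPM to 12.4, 9.31 and 11.3 CPM. Rtp4, a chaperone of membrane receptors, rose by 3.17, Ifi35 by 2.28, its partner Nmi by 1.53 and the endoplasmic reticulum ATPase Tor3a by 1.13.

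Per kilobase of exon, levels with LPS ran from 1.79 CPM/kb for Ifi44 to 196 CPM/kb for Bst2, with a median of 46.4 CPM/kb. A large fold change did not mark a high level, since the low end of this scale held Ifi44, which rose more than 2-fold, and the high end held Bst2, which did not. The 11 genes with the response element core in their window had a median log2 fold change of 2.61 with LPS, and the 21 without it one of 1.70, given as a description.

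**Figure D1:**
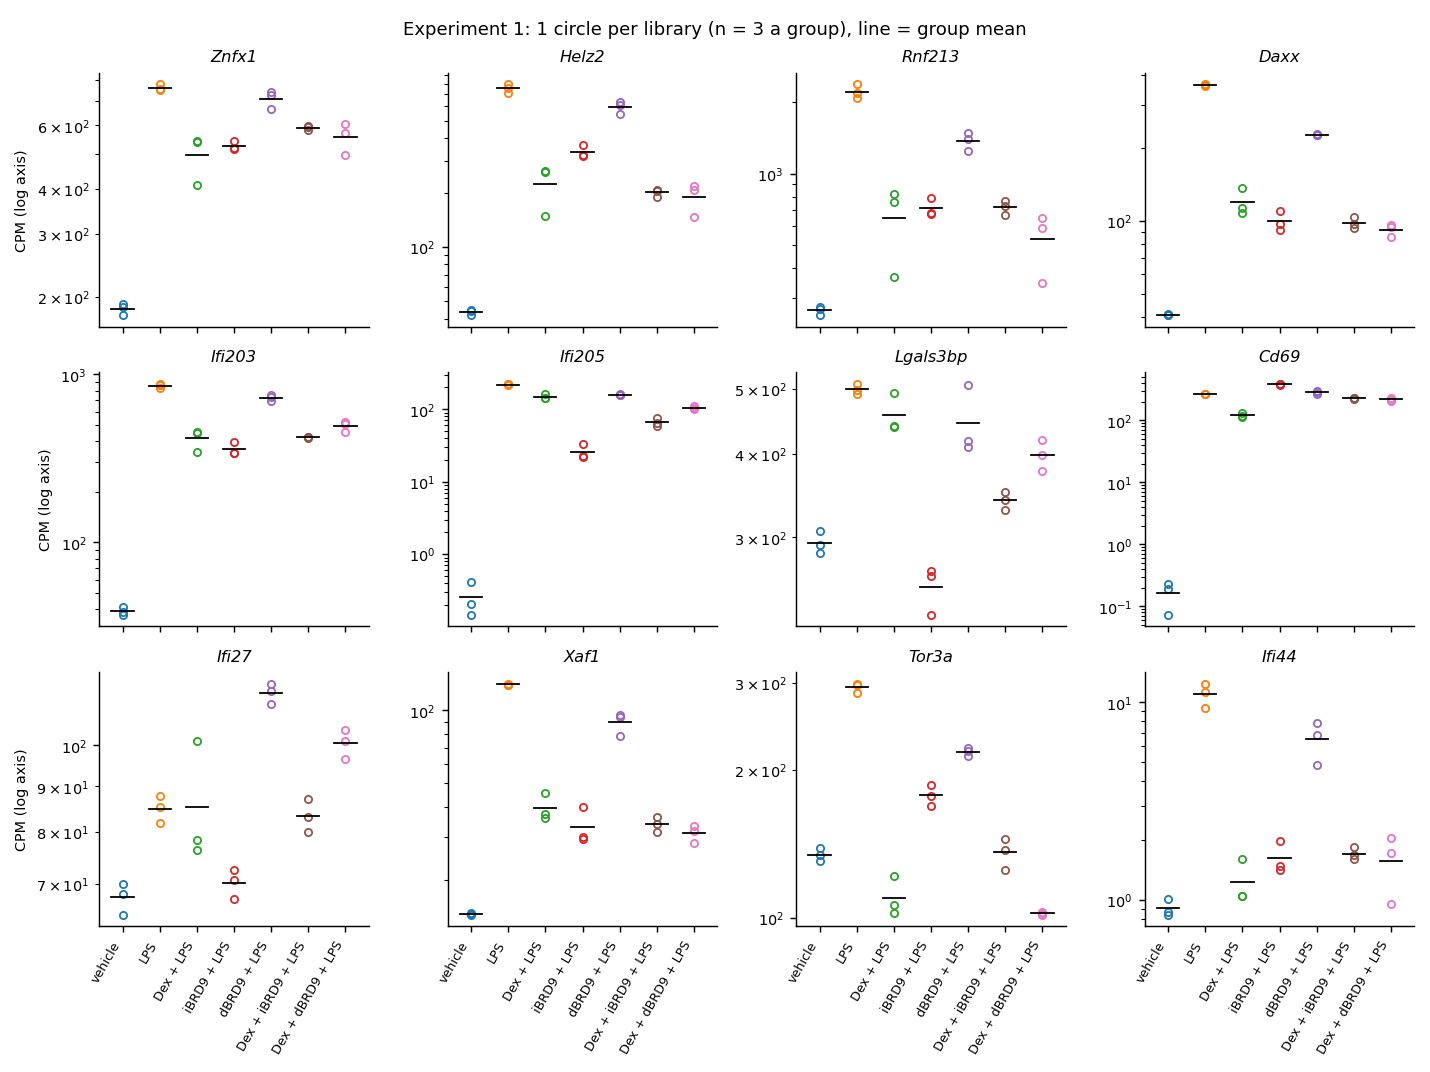
Level of 12 of the genes in each of the 21 libraries of experiment 1, in CPM on a log axis. Each circle is a library and each line the group mean. Cd69 and Ifi205 go from under 1 CPM with vehicle to over 200 CPM with LPS, and the 3 iBRD9 + LPS libraries of Ifi205 sit between 21.7 and 33.1 CPM.

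Dexamethasone lowered most of the genes in LPS-treated cells. Of the 39, 34 were lower with Dex + LPS than with LPS, against 27.5% of all genes tested, and 20 of them fell more than 2-fold. Another 3 were higher, against 27.9% of all genes. The median log2 fold change was -1.04 over the 39 genes. Lgals3bp (-0.13) and Ifi27 (0.01) were not called. Macrophage markers summed to 14019.3 to 14573.5 CPM with LPS and to 22419.9 to 23355 CPM with Dex + LPS, most of it Lyz2, and the part of this shift in the result was not tested. With replicate 1 of both groups that stood apart left out, 36 were lower and 3 higher.

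The 5 genes of nuclear bodies and chromatin all fell more than 2-fold with Dex. Phf11b went from 52.7, 48.0 and 49.2 CPM with LPS to 13.2, 10.2 and 9.64 CPM (-2.18, SE 0.14). Pml went from 69.7, 65.2 and 75.3 CPM to 22.1, 20.4 and 21.2 CPM (-1.72, SE 0.08). Its Dex libraries thus lay below the vehicle libraries too. All 7 ubiquitin ligases fell, led by Trim30d at -1.89 (SE 0.09), and so did all 8 genes that handle RNA or DNA. Helz2 had 148, 259 and 264 CPM with Dex + LPS (-1.76, SE 0.15), and Rnf213 had 365, 759 and 821 CPM (-1.77, SE 0.21). In both genes the lowest value is replicate 1, a library that stood apart, and the other Dex libraries also lay below every LPS library.

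Ifi44 fell most, to 1.60, 1.04 and 1.05 CPM (-3.13, SE 0.22), and was not called against vehicle (0.46, SE 0.31). Cd69 fell to 132, 120 and 115 CPM (-1.13, SE 0.06), and its Dex libraries stayed far above vehicle. Among the PYHIN genes Ifi203 fell by 1.05, Ifi205 by 0.55 and Ifi204 by 0.22. The 3 genes that rose were Ms4a4c at 0.78 (SE 0.13), Ifi27l2a at 0.64 (SE 0.12) and Ly6e at 0.60 (SE 0.13). Ms4a4c went from 18.1, 16.2 and 18.8 CPM with LPS to 35.5, 27.3 and 28.2 CPM. Ifi27l2a went from 61.0, 53.0 and 56.1 CPM to 107, 82.5 and 75.3 CPM, and Ly6e from 138, 119 and 114 CPM to 234, 170 and 157 CPM. No Dex library overlapped the LPS libraries for these genes, and replicate 1 was the highest each time. Ifi27 and Ifi27l2a lie next to each other on chromosome 12 (103434211 to 103440239 and 103442167 to 103443680), and of this pair Ifi27l2a was the one called.

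iBRD9 lowered nearly all of the genes. Of the 39, 38 were lower with iBRD9 + LPS than with LPS, against 30.5% of all genes tested, and 24 of them fell more than 2-fold. Cd69 was higher, against 31.4% of all genes. The median log2 fold change was -1.25. With each of the 6 libraries of the comparison left out in turn, 38 were lower each time. Neutrophil markers summed to 6.95 to 9.50 CPM with LPS and to 0.331 to 0.610 CPM with iBRD9 + LPS, with 3 of 6 above 1 CPM in any library. Conventional dendritic cell markers went from 6.87 to 7.80 CPM to 1.22 to 1.49 CPM, with 3 of 5 above 1 CPM in any library and Cd209a at 0 in all. The part of these cells in the result was not tested.

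The largest decreases were in surface proteins. Ms4a4c went from 18.1, 16.2 and 18.8 CPM with LPS to 0.814, 1.66 and 0.941 CPM (-3.97, SE 0.19). Fcgr1 went from 22.9, 22.4 and 26.6 CPM to 1.80, 2.15 and 1.92 CPM (-3.61, SE 0.18). Both then lay below their vehicle libraries. Bst2, by contrast, fell by 0.69 and Lgals9 by 0.77. Cd69 went the other way, to 373, 385 and 388 CPM from 270, 266 and 267 CPM (0.51, SE 0.06), without overlap.

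Phf11b fell to 4.20, 7.33 and 4.19 CPM (-3.26, SE 0.15) and Phf11d by 2.64. The 3 PYHIN genes all fell more than 2-fold. Ifi205 went from 220, 213 and 223 CPM with LPS to 21.7, 33.1 and 22.7 CPM (-3.09, SE 0.11), below every LPS library and above every vehicle library. Ifi204 fell by 1.48 and Ifi203 by 1.26. Ifi44 fell to 1.49, 1.99 and 1.41 CPM (-2.75, SE 0.20). Xaf1 fell by 1.96 and Ifi27l2a by 1.75. The 7 ligases fell by 0.69 (Trim34a) to 1.63 (Rnf213). Of the genes that handle RNA or DNA, Ddx60 fell most at -1.95 and Tdrd7 least at -0.17 (SE 0.06). The genes with the response element core had a median of -1.26 and those without it one of -1.44.

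dBRD9 lowered 28 of the 39 genes, against 9.97% of all genes tested, and raised Ifi27, against 6.64%. The changes were small. The median was -0.44, and Ms4a4c was the one gene past 2-fold, at 8.48, 6.75 and 5.80 CPM against 18.1, 16.2 and 18.8 CPM with LPS (-1.33, SE 0.15). Phf11b followed at -0.98 (SE 0.13) and Pml at -0.96 (SE 0.07). All 5 genes of nuclear bodies and chromatin, all 3 PYHIN genes and 6 of 7 ligases fell. Of the genes that handle RNA or DNA, 5 of 8 fell. Cd69 had 294, 269 and 287 CPM (0.08, SE 0.06) and was not called. Ifi27 went from 81.9, 87.7 and 85.2 CPM with LPS to 117, 111 and 115 CPM (0.43, SE 0.08), above every LPS library. Leaving out each library in turn gave 22 to 27 genes lower. Macrophage markers summed to 14019.3 to 14573.5 CPM with LPS and to 11255.6 to 11519.1 CPM with dBRD9 + LPS, with all 7 above 1 CPM, and the part of this shift in the result was not tested.

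The 2 compounds were given at different doses, so their values stand side by side and cannot be told apart from dose. The level with iBRD9 + LPS was a median 42.1% of the LPS level over the 39 genes and with dBRD9 + LPS 73.9%. Between the iBRD9 and dBRD9 libraries, 37 genes were lower with iBRD9, against 27.2% of all genes, and Cd69 was higher (0.43, SE 0.06), against 28.3%. Fcgr1 differed most, at -2.81 (SE 0.18), with 17.5, 11.7 and 11.9 CPM with dBRD9 against 1.80, 2.15 and 1.92 CPM with iBRD9. Ms4a4c differed by -2.64 and Ifi205 by -2.62, with Ifi205 at 160, 156 and 158 CPM with dBRD9. Tdrd7 was not called, at 0.12 (SE 0.06).

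**Figure D2:**
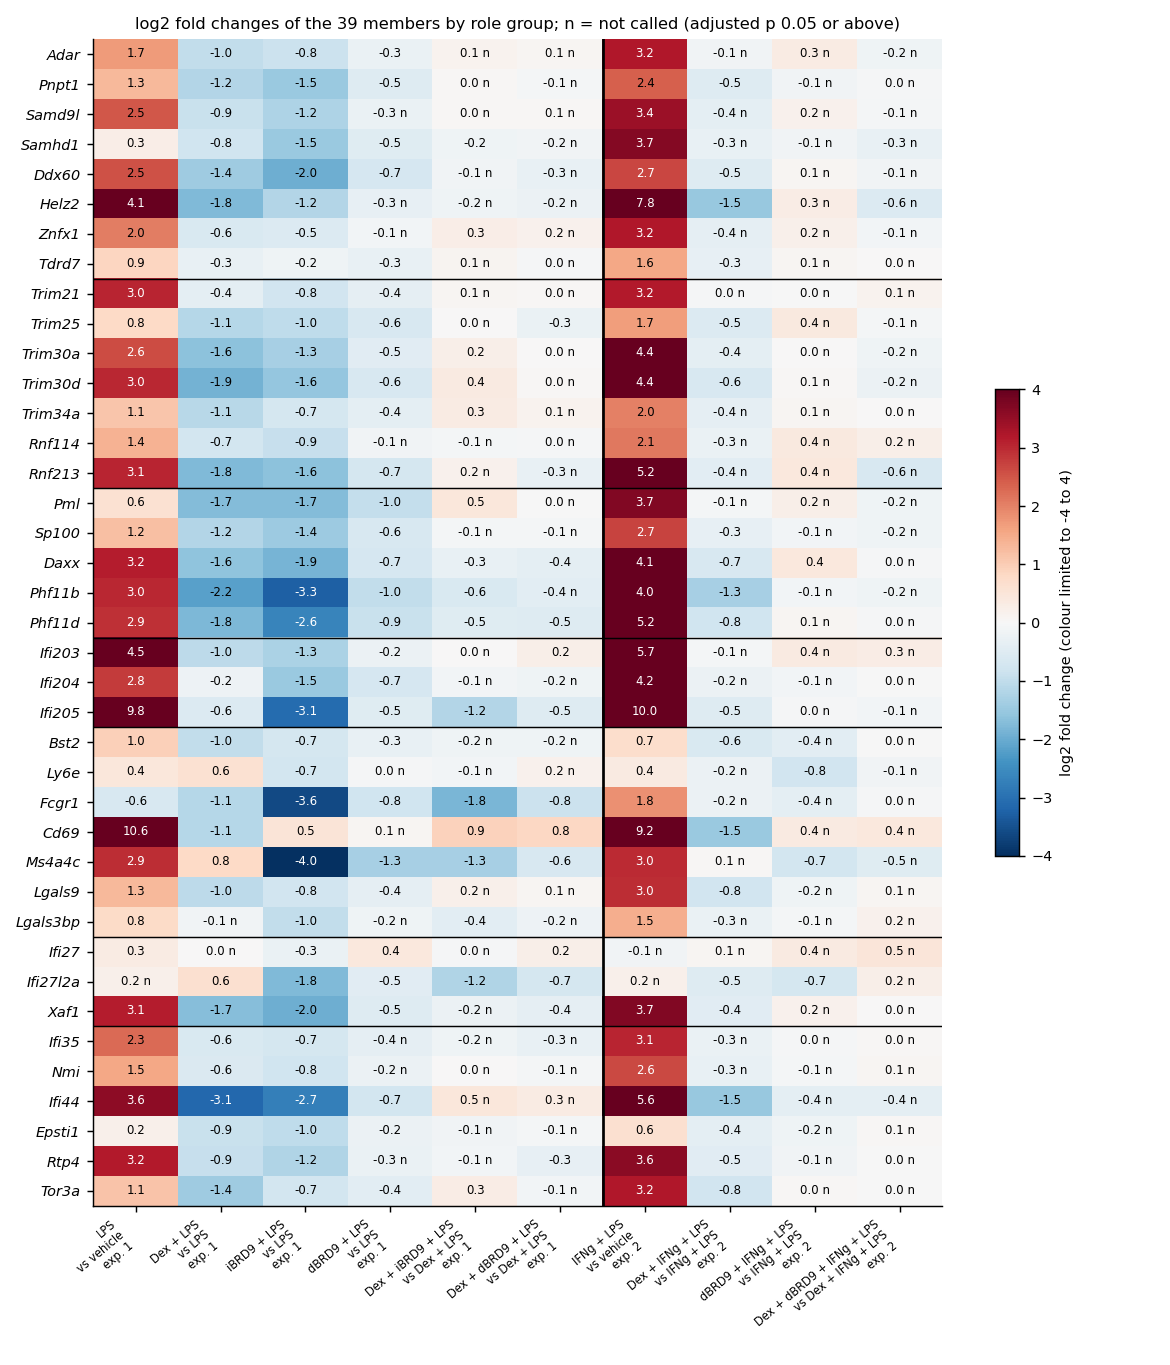
Log2 fold change of the 39 genes, grouped by role, in the comparisons of both experiments. Colour is limited to -4 to 4, and n marks a gene not called. The iBRD9 column is lower for 38 genes, and the columns of compounds added to Dex are mostly marked n.

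Added to dexamethasone, the compounds did much less to these genes. Dex + iBRD9 + LPS against Dex + LPS gave 9 genes lower, against 18% of all genes, and 7 higher, against 16.7%. Both shares are close to the background, and the median was -0.07. Scaling by library totals alone gave 8 lower and 11 higher, against 1656 and 3089 of all 12662 genes. A fit of only the groups compared gave 7 and 4, and leaving out both libraries that stood apart gave 11 and 7. The shares of all genes in these last fits are not given here. The genes that fell were led by those with large decreases under iBRD9 alone. Fcgr1 went from 13.2, 10.1 and 9.19 CPM with Dex + LPS to 3.06, 2.57 and 3.42 CPM (-1.84, SE 0.18). Ms4a4c went from 35.5, 27.3 and 28.2 CPM to 13.8, 10.7 and 11.8 CPM (-1.33, SE 0.13). Neither gene overlapped between the groups, and Ifi27l2a (-1.20) and Ifi205 (-1.18) were next. The 7 higher genes were Cd69 at 0.91 (SE 0.06), Pml at 0.45, Trim30d at 0.36, Trim34a at 0.33, Tor3a at 0.30, Znfx1 at 0.25 and Trim30a at 0.23. Cd69 went from 132, 120 and 115 CPM to 225, 231 and 234 CPM.

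Dex + dBRD9 + LPS against Dex + LPS gave 9 genes lower, against 9.28% of all genes, and 3 higher, against 6.51%, with a median of -0.09. The split was 11 lower and 1 higher with RLE size factors, against 1378 and 666 of all 12662 genes. With library totals alone it was 7 and 4, against 843 and 1598. It was 13 and 2 with DESeq2, 15 and 3 with no filter on low counts and 4 and 1 with only the groups compared. Fcgr1 fell by 0.84 (SE 0.16) to 5.10, 6.07 and 7.11 CPM, and Ifi27l2a fell by 0.72 (SE 0.12). Cd69 rose by 0.84 (SE 0.06) to 218, 210 and 229 CPM. Ifi203 rose by 0.25, without overlap, and Ifi27 by 0.23, with overlapping libraries. Leaving out each library in turn gave 6 to 11 genes lower, the 6 without replicate 1 of Dex + dBRD9 + LPS, and 1 to 3 higher, the 1 without its replicate 2. Leaving out both that stood apart gave 9 lower and 4 higher.

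The difference between a compound's effect with and without Dex was tested as an interaction, in which the log2 fold change without Dex is subtracted from the one in its presence. For iBRD9 it was positive for 38 of 39 genes, against 17.3% of all genes called in that direction, and Ifi27 was not called at 0.24 (SE 0.11). edgeR called none of the 39 negative, against 16% of all genes; none was negative at an unadjusted p under 0.05, and DESeq2 also called 0. The median was 1.08. Ifi44 had the largest value at 3.20 (SE 0.36), followed by Phf11b at 2.65 (SE 0.23), Ms4a4c at 2.64 (SE 0.25) and Pml at 2.19 (SE 0.11). For Ifi44, iBRD9 went with a fold change of -2.75 without Dex and with one of 0.45 (SE 0.29, not called) with Dex, where the level was already 1.60, 1.04 and 1.05 CPM. Tdrd7 (0.29) and Cd69 (0.39) had the smallest called values, and for Cd69 the sign means that a rise was larger with Dex. With each of the 12 libraries left out in turn, 36 to 39 genes were positive, and 39 with both libraries that stood apart left out.

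For dBRD9 the interaction was positive for 14 of 39 genes, against 1.82% of all genes, with a median of 0.33. edgeR called none negative, against 1.57% of all genes, and DESeq2 also called 0. At an unadjusted p under 0.05, 24 of the 39 were positive and 0 negative. Pml had 0.96 (SE 0.11), Cd69 0.75 (SE 0.08), Ms4a4c 0.70 (SE 0.19) and Trim30d 0.68 (SE 0.12). The count was 25 with both libraries that stood apart left out. It fell to 8 without replicate 3 of LPS, of dBRD9 + LPS or of Dex + dBRD9 + LPS, and to 9 without replicate 1 of LPS or replicate 2 of dBRD9 + LPS.

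**Figure D3:**
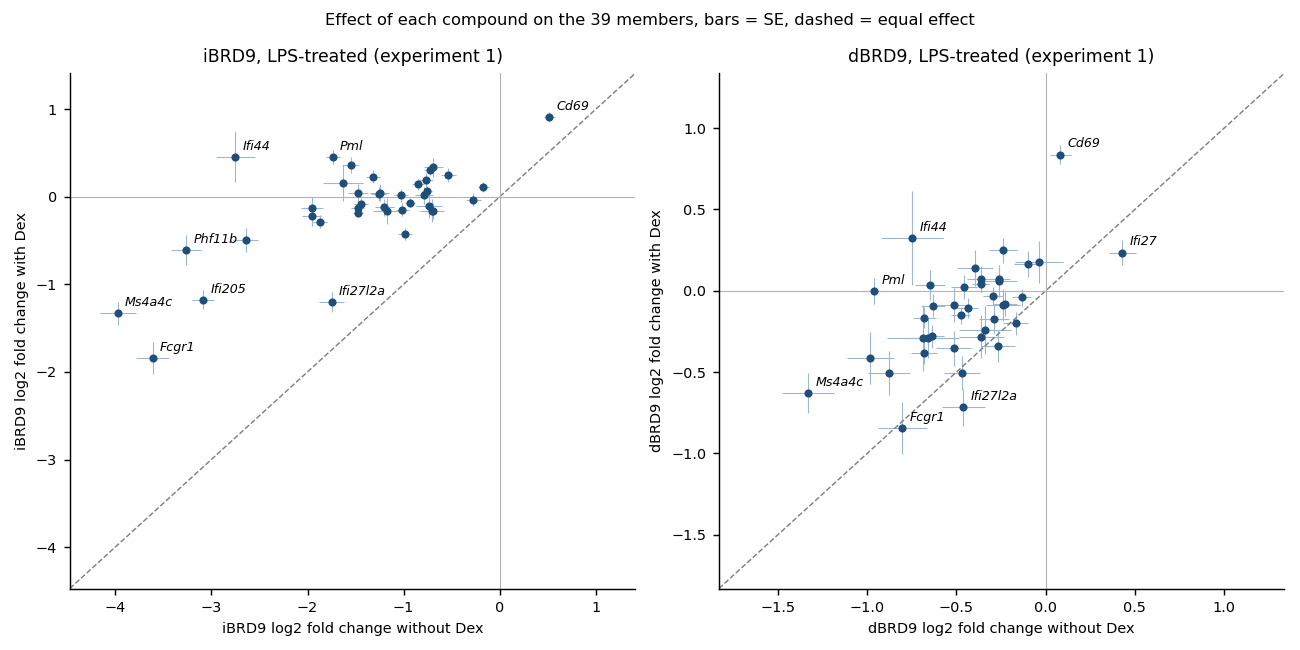
Log2 fold change with the compound in the absence of Dex (x axis) and in its presence (y axis) for each of the 39 genes, iBRD9 and dBRD9 in separate panels. Points on the diagonal would have equal changes; for iBRD9 all 39 genes lie above it, with Ifi44 at -2.75 and 0.45.

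Set against unstimulated cells, the treated cells kept part of the increase. As a median over the 39 genes the level was 24.3% of that with LPS in vehicle libraries, 48.7% with Dex + LPS, 51.2% once dBRD9 was added to Dex and 49.1% once iBRD9 was added to it. Against vehicle, Dex + LPS had 28 genes higher (36.9% of all genes) and 6 lower (38.7%). The lower ones were Samhd1, Trim25, Pml, Fcgr1, Epsti1 and Tor3a, with Pml at -1.11 and Fcgr1 at -1.77. iBRD9 + LPS had 25 higher (37%) and 9 lower (35.6%), with Fcgr1 at -4.24, Ifi27l2a at -1.53 and Ms4a4c at -1.03. Dex + iBRD9 + LPS had 28 higher (37.5%) and 7 lower (36.3%). Scaling by library totals alone gave 25 and 10 for Dex + LPS, where 2740 of all 12662 genes were higher and 7507 lower. It gave 18 and 13 for iBRD9 + LPS, where 2494 were higher and 7054 lower.

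In experiment 2, IFNg + LPS raised 37 of the 39 genes, against 32.8% of all genes tested, with a median of 3.19. None was called lower in the main edgeR fit (35.6% of all genes), by DESeq2 or at an unadjusted p under 0.05 in that main fit. Ifi27 (-0.14) and Ifi27l2a (0.19) were not called. Ifi205 stood at 1.36 and 0.642 CPM with vehicle and at 1023 and 1058 CPM with IFNg + LPS (10.04, SE 0.22). Helz2 went from 7.61 and 14.9 CPM to 2301 and 2621 CPM (7.76, SE 0.30). Cd69 rose by 9.25 (SE 0.22), to 698 and 666 CPM. Neither library of the stimulated group came near vehicle for these genes. Fcgr1, which was lower with LPS alone in experiment 1, went from 112 and 105 CPM to 358 and 415 CPM (1.83, SE 0.11). Samhd1 rose by 3.68 and Pml by 3.71, against 0.26 and 0.61 with LPS in experiment 1. The experiments differ in stimulation and in set of libraries, which cannot be told apart. Scaling by library totals alone moved the median of all genes from -0.11 to -0.76 and turned the sign of Ly6e, Ifi27l2a and Epsti1. It gave 34 of the 39 genes higher and 3 lower, against 2632 and 7819 of all 13313 genes.

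**Figure D4:**
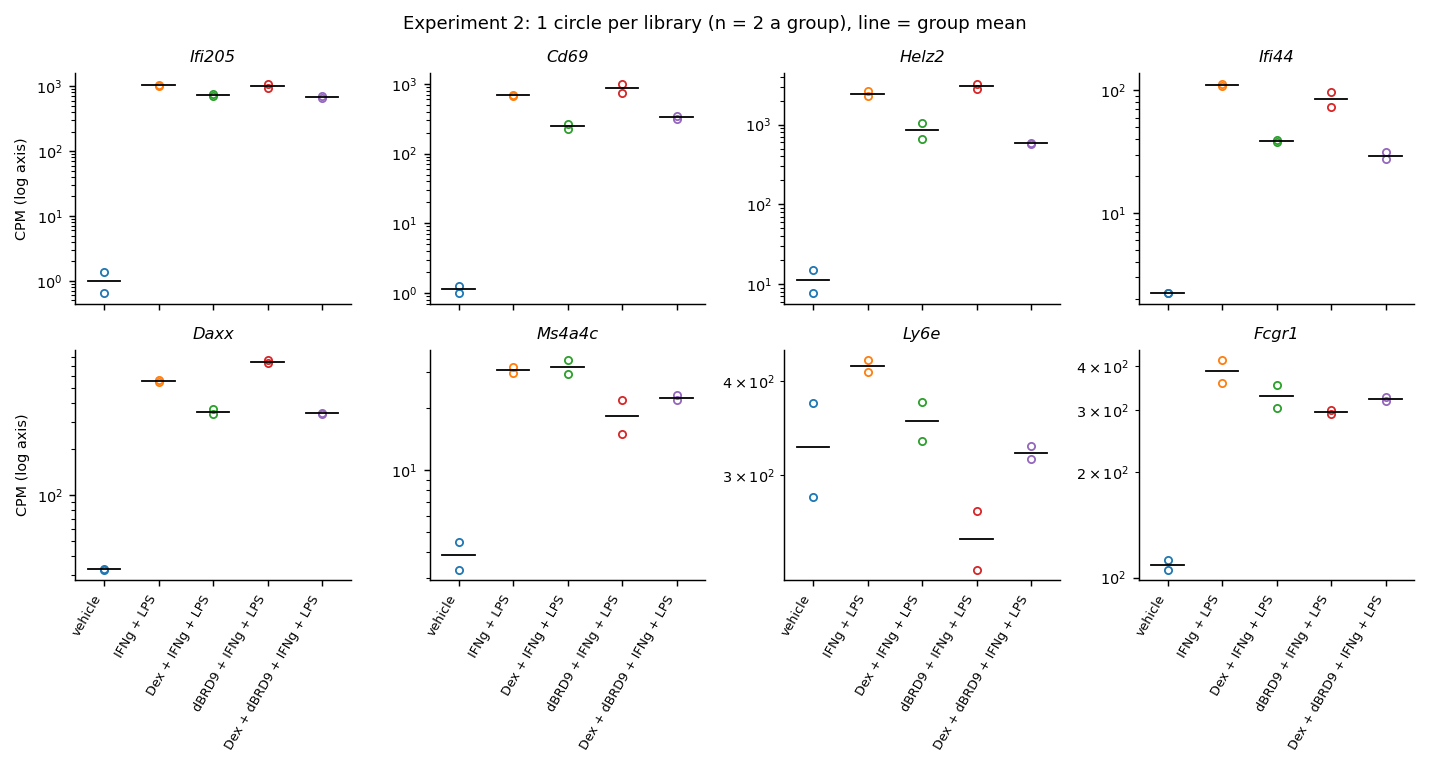
Level of 8 of the genes in the 10 libraries of experiment 2, in CPM on a log axis, with circles for libraries and lines for group means. Ifi44 falls from 113 and 109 CPM to 37.6 and 39.3 CPM with Dex, while Fcgr1 stays between 291 and 415 CPM in the stimulated groups.

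Dex lowered 21 of the 39 genes in cells given IFNg + LPS, against 9.21% of all genes, with a median of -0.38. None was called higher by edgeR (10.7% of all genes), by DESeq2 or at an unadjusted p under 0.05. Ifi44 went from 113 and 109 CPM to 37.6 and 39.3 CPM (-1.53, SE 0.13). Helz2 went from 2301 and 2621 CPM to 1044 and 664 CPM (-1.53, SE 0.22), and Cd69 to 225 and 265 CPM (-1.48, SE 0.14). The Dex libraries lay below both IFNg + LPS libraries for all 3 genes, and the pair of Helz2 values was the widest. The lower Helz2 value is replicate 2, which is also the lower for the long Rnf213 (2751 and 1844 CPM), and these 2 libraries differ in the trend with transcript length given above. The part of that trend in these values was not tested. Phf11b fell by 1.32 (SE 0.11), Phf11d by 0.79, Lgals9 by 0.78 and Tor3a by 0.77. Ly6e (-0.24, SE 0.13) was not called, and Ifi27l2a fell by 0.50 (SE 0.14). The level was a median 76.7% of that with IFNg + LPS. Neutrophil markers summed to 15.2 to 16.8 CPM with IFNg + LPS and to 5.04 to 8.13 CPM with Dex, with 3 of 6 above 1 CPM in any library and Ly6g at 0 in all. Stromal markers went from 59.6 to 65.5 CPM to 37.7 to 45.3 CPM, with 3 of 4 above 1 CPM. The part of these shifts in the result was not tested. The count was 11 without replicate 2 of IFNg + LPS, 12 without its replicate 1 and at most 15 with any 1 of the 4 libraries left out.

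dBRD9 did little to these genes in cells given IFNg + LPS. It lowered 3 of them, against 1.01% of all genes, and raised 1, against 0.819%, with a median of 0.02. Ly6e went from 427 and 412 CPM to 269 and 224 CPM (-0.77, SE 0.13). Ms4a4c fell by 0.73 (SE 0.17) and Ifi27l2a by 0.71 (SE 0.14). Daxx went from 545 and 561 CPM to 761 and 724 CPM (0.42, SE 0.10). The groups did not overlap for Ly6e or Daxx. The 3 lower calls became 0 without replicate 1 or replicate 2 of IFNg + LPS, or without replicate 2 of dBRD9 + IFNg + LPS, and 2 without the remaining library. The Daxx call was lost with any of the 4 libraries left out and with library totals alone, which gave 3 lower and 0 higher. None of the 4 calls was kept in every setting tried (0 of 4). Neutrophil markers summed to 8.95 to 9.66 CPM with dBRD9, below the IFNg + LPS libraries, and stromal markers to 48.3 to 49.3 CPM, also below, and their part in the result was not tested. With Dex present, edgeR called none of the 39 genes for dBRD9, against 0.233% of all genes called higher and 1.16% lower; 9 had an unadjusted p under 0.05, and DESeq2 called 0. The interaction of Dex and dBRD9 also had no call among the 39 with edgeR, against 0% of all genes called positive and 0.00751% negative; 9 had an unadjusted p under 0.05, and DESeq2 called 1.

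**Figure D5:**
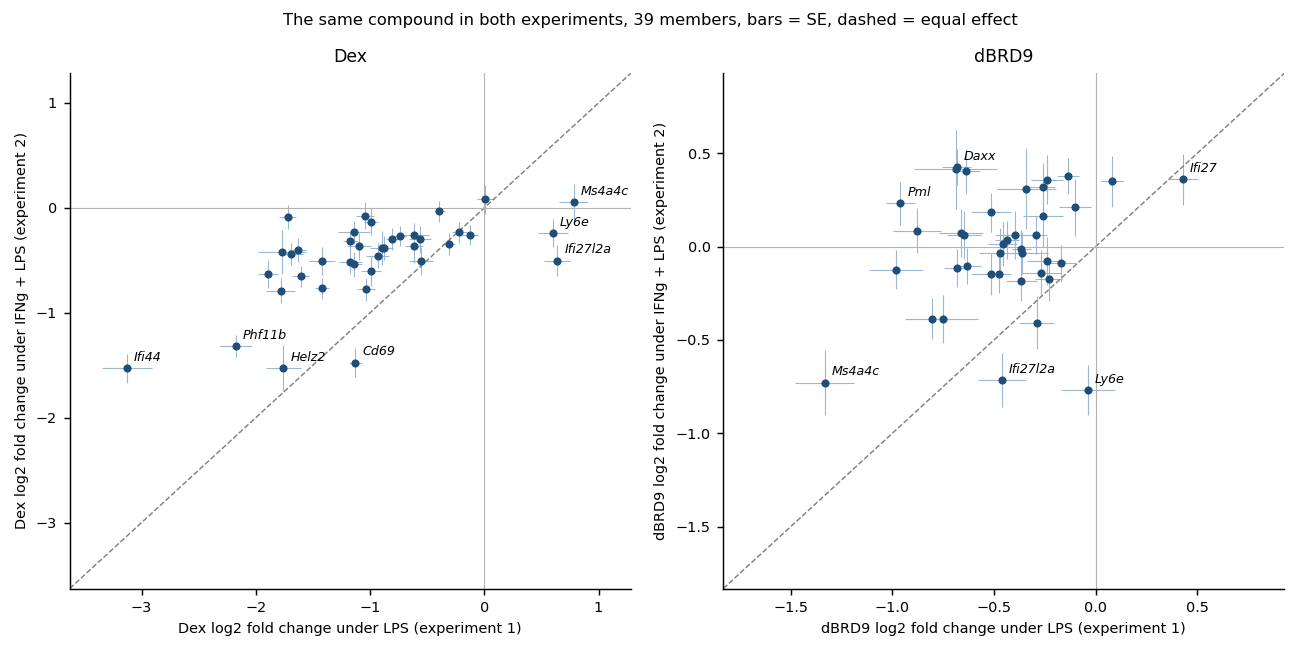
Log2 fold change of each of the 39 genes in experiment 1 (x axis) and experiment 2 (y axis) for Dex (left) and dBRD9 (right), with bars of 1 SE and a dashed line of equal change. For Dex 7 genes lie at a higher value in experiment 1, and for dBRD9 the points of experiment 2 scatter about a median of 0.02.

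Across the 39 genes, the fold changes of the 2 experiments, which share no library, correlated with r = 0.888 for stimulation, 0.613 for Dex and 0.254 for dBRD9. Over all 11945 genes tested in both, the same values were 0.820, 0.475 and 0.108. These are correlations across genes, which are not independent replicates, and they are given as a description. For Dex the median was -1.04 in experiment 1 and -0.38 in experiment 2, and 7 genes had the higher value in experiment 1, among them Ly6e, Ms4a4c and Ifi27l2a.

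The other genes of the pathway give the frame for these values. Interferon beta itself (Ifnb1) was at 0 in the 3 vehicle libraries of experiment 1 and at 6.37, 6.07 and 5.61 CPM with LPS. It stood at 0.260, 0.825 and 0.503 CPM with Dex + LPS, at 0.271, 0.704 and 0.385 CPM with iBRD9 + LPS and at 2.78, 2.42 and 3.33 CPM with dBRD9 + LPS. None of these treated libraries reached the LPS libraries. All 30 interferon-stimulated genes of the named families were higher with LPS, lower with Dex and lower with iBRD9, and 26 were lower with dBRD9. The interaction of Dex and iBRD9 was positive for 29 of these 30. Of 15 interferon-gamma-responsive genes, 15 were lower with Dex, 12 lower and 2 higher with iBRD9, and 12 lower with dBRD9. Of 12 NF-kB target genes, all rose with LPS, and with iBRD9 6 were lower and 4 higher with a median of -0.08. With Dex 6 of the 12 were lower and 2 higher (median -0.19), and with dBRD9 4 were lower and 3 higher (median -0.07). Over all genes tested, 36.1% were higher with LPS. With Dex 27.5% were lower and 27.9% higher, with iBRD9 30.5% and 31.4%, and with dBRD9 9.97% and 6.64%. The 4 NF-kB target genes higher with iBRD9 are thus close to the share of all genes. Of all genes, 17.3% were called positive in the interaction of Dex and iBRD9.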

How the data were processed

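The values are raw read counts per Ensembl gene that the authors deposited in 1 table per experiment. No column was left out. The submitters' processing notes name mm10 as the build and list STAR, fastp and DESeq2, with no role or version. How reads were counted per gene, against which annotation and with which strandedness is not given in the sources used here. Reads of overlapping genes on opposite strands (8 of the 39 genes) may therefore be mixed, and 11 genes share over 5% of their 50-base stretches with other genes (Phf11b, Trim34a, Ifi204, Ifi205, Ifi203, Rtp4, Ms4a4c, Phf11d, Trim30d, Trim30a and Sp100).

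From these counts, each experiment was fitted alone in edgeR 4.0.16 (R 4.3.3) over all its libraries. Genes were kept by filterByExpr (minimum count 10, minimum total 15), scaled by TMM (which assumes that most genes do not change) and tested with the quasi-likelihood F test with 1 coefficient per group. Benjamini-Hochberg adjustment ran over all genes tested, and a gene was called at an adjusted p under 0.05. The standard error is the size of the log2 fold change over the root of F. CPM are counts scaled to the TMM-adjusted library total. The common biological coefficient of variation was 6.79% (14 residual degrees of freedom) and 10.6% (5). The fit was also run on simulated independent counts with changes planted in the dBRD9 comparisons without Dex. These counts held no trend with transcript length, so the run says nothing about that trend.

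Replicate numbers were taken as paired in 2 comparisons, by the correlation of deviations from group means between same-numbered libraries. These were Dex + LPS with Dex + iBRD9 + LPS (0.107 to 0.236) and with Dex + dBRD9 + LPS (0.416 to 0.733). The numbers are not shown to be true pairs. Replicate 2 of Dex + LPS correlated at 0.416 with its own number in Dex + dBRD9 + LPS and at 0.495 with another. In Dex + iBRD9 + LPS its values were 0.107 and 0.100. Replicate 1 of Dex + LPS and of Dex + dBRD9 + LPS also share the trend with transcript length given above. The pairing comes from the data, not from the labels.

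A rule named the genes whose values in every library were meant to be printed. It took, in each role group, the gene with the highest mean CPM and the one with the largest change with LPS. In each comparison it added the called genes at both ends among those whose higher group averaged 10 CPM or more. The text does not print library values for all of them, and Lgals3bp, Xaf1, Tor3a and Epsti1, for example, have fold changes only. Other genes printed were chosen after their values were seen. The members, the role groups, the other gene lists and the marker lists were chosen with earlier results of these data known. Symbols and positions come from GENCODE M21 on GRCm38, the assembly of mm10, and promoters from RefSeq on GRCm38.p6. Alternatives were the replicate block, RLE size factors, library totals alone, other count filters, DESeq2 1.42.0, fits of only the groups compared, and leaving out libraries. One further list of pathway genes is not reported here.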

Additional observations from a re-analysis of the deposited data

Results flagged for a closer look

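The interaction terms compared the effect of a BRD9 compound between cells with and without Dex. For iBRD9, 38 of the 39 genes were called, all in the positive direction, against 17.3% of all genes tested. Ifi44 at 3.20 and Phf11b at 2.65 were the largest. For dBRD9, 14 were called, all positive, against 1.82% of all genes. Pml at 0.96 and Cd69 at 0.75 were the largest among the called genes. The dBRD9 count was 8 with only the groups compared and 25 with both libraries that stood apart left out.

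Between the compared groups, some genes had no overlapping libraries in either experiment but moved in opposite directions. The difference between the experiments was not tested. How many of all genes do this was not counted, and experiment 2 set only 2 libraries against 2. With Dex, Ly6e had a log2 fold change of 0.60 with LPS and -0.24 with IFNg + LPS, and Ifi27l2a had 0.64 and -0.50. With dBRD9, the values with LPS and with IFNg + LPS were -0.26 and 0.32 for Adar, -0.34 and 0.31 for Helz2, and -0.64 and 0.40 for Trim25. They were -0.14 and 0.38 for Rnf114, -0.96 and 0.23 for Pml, and -0.68 and 0.42 for Daxx. For Ifi203 they were -0.24 and 0.36, and for Xaf1 -0.52 and 0.18. Of the dBRD9 values in experiment 2, Daxx was the one called.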

How the results depend on the processing

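Each of the 39 genes was recomputed in 17 comparisons under every alternative, which gave 9438 values. Of these 8813 kept their direction and their side of the threshold, 240 lost a call and 194 gained one. Another 191 changed sign, 170 of them where neither value was called (size at most 0.248) and 21 where one was. With library totals alone the log2 fold change turned negative against vehicle for Samhd1 (-0.26), Ly6e (-0.065), Ifi27 (-0.19), Ifi27l2a (-0.30) and Epsti1 (-0.32) with LPS. It did so for Pnpt1 (-0.32), Trim34a (-0.43), Sp100 (-0.39), Lgals9 (-0.16) and Ifi27 (-0.091) with Dex + LPS, and for Bst2 (-0.12) and Ifi27 (-0.33) with iBRD9 + LPS. It also did for Trim34a (-0.016), Lgals3bp (-0.14), Ifi27 (-0.049) and Tor3a (-0.34) with Dex + iBRD9 + LPS, and for Ly6e (-0.29), Ifi27l2a (-0.45) and Epsti1 (-0.0022) with IFNg + LPS. Tor3a with Dex + iBRD9 + LPS against vehicle was -0.0045 with RLE, -0.0020 with no filter, -0.031 with a minimum count of 50, -0.0046 with DESeq2 and -0.030 with only the groups compared. Trim34a with Dex + LPS against vehicle was -0.018 with no filter and -0.046 with a minimum of 50, and Sp100 was -0.0085 with a minimum of 50. Ifi27 with Dex + LPS against LPS was -0.018 with a minimum of 50 and -0.13 with both libraries that stood apart left out. The cause was not tested in any of these. Leaving out 1 library gave -0.094 to 0.10 for Trim34a (Dex + LPS against vehicle), -0.019 to 0.081 for Tor3a (Dex + iBRD9 + LPS against vehicle) and -0.13 to 0.086 for Ifi27 (Dex + LPS against LPS). With IFNg + LPS against vehicle it gave -0.34 to 0.093 for Ifi27 and -0.042 to 0.47 for Ifi27l2a.

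In the comparisons below, the count in the direction of most calls moved past 1.5 times in some setting. Further settings are given beside these, and the cause was not tested. Counts in the other direction were not held to this rule. With library totals alone, for example, the lower count against vehicle went from 1 to 5 with LPS. It went from 6 to 10 with Dex + LPS and from 0 to 3 with IFNg + LPS. The higher count went from 7 to 11 for Dex + iBRD9 + LPS against Dex + LPS. Dex + dBRD9 + LPS against Dex + LPS had 15 lower and 3 higher with no filter, 4 and 1 with only its groups, and 11 and 1 with RLE, against 9 and 3. The interaction of Dex and dBRD9 in experiment 1 had 8 with only its groups, 25 with both libraries that stood apart left out, and 8 to 20 with 1 library left out. In experiment 2, dBRD9 had 5 lower and 3 higher with only its groups, 4 and 3 with no filter, and 0 to 2 lower and 0 higher with 1 library left out, against 3 and 1. Dex had 11 to 15 lower with 1 left out. There, dBRD9 with Dex had 2 higher and 2 lower with no filter, 2 and 3 with only its groups, and 0 and 1 without replicate 2 of Dex + IFNg + LPS. The interaction had 2 higher and 2 lower with no filter, and 1 and 0 with DESeq2 and with only its groups. Where an arm was left with 1 library, that library was assumed to vary like the other groups.

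The replicate block gave 9 lower and 7 higher for Dex + iBRD9 + LPS against Dex + LPS, and 10 and 3 for Dex + dBRD9 + LPS. These are the comparisons where the numbers were taken as paired. With only those groups the block, added after seeing the data, gave 7 and 4, and 9 and 2. In the other comparisons the samples shared only a number. There the block moved no count in the direction of most calls past 1.5 times. It gave 2 lower and 0 higher for dBRD9 in experiment 2, against 3 and 1 in the main fit. Replicate numbers of IFNg + LPS and Dex + IFNg + LPS correlated at -0.210, and the crossed pairing, also added after seeing the data, gave 27 lower for Dex.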
